A study of Gallus gallus with 4 samples.

Results

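Carbonic anhydrases are the zinc enzymes that interconvert carbon dioxide and bicarbonate, and CA2, CA3B, CA4 and CA13 are the 4 described here, of 24356 genes in the RNA tables. They were chosen by name, with their pattern across cell types in these data already known, so their levels by cell class are a description and carry no test. With them go the 22 of 87491 chromatin peaks at embryonic day 13 (E13) that the deposited annotation assigns to these genes. The lungs came from wild-type chicken embryos. At embryonic day 20 (E20), cells from an epithelial sort gave 1 single-cell RNA library (here the epithelial sort, in figure legends the E20 epithelial library), and lung cells depleted of immune cells gave another (the CD45neg sort). At E13, sorted populations mixed in roughly equal parts were profiled by multiome, in which each nucleus gives both its RNA and its open chromatin (ATAC). The molecule is given as nuclear RNA in the labels of E13 and the epithelial sort, and as total RNA in that of the CD45neg sort. Each group is 1 library, so no test between groups was possible, and the number of embryos behind it is not given in the sources used here.

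In vertebrate blood, cytosolic carbonic anhydrase in red cells hydrates carbon dioxide taken up in the tissues, and the bicarbonate leaves the cell in exchange for chloride through SLC4A1 (band 3). In the lung the reaction runs backwards and carbon dioxide is released. CA2 is the fast cytosolic enzyme and CA13 a cytosolic relative. CA4 is held on the outer face of the cell membrane by a lipid anchor and is known from mammalian lung as a capillary enzyme. CA3B belongs to the CA3 group, whose mammalian member has low hydration activity. CA13, CA3A, CA3B and CA2 start in that order within 141673 bp of chromosome 2 in the files' coordinates (galGal6, per the submitters' processing notes), and CA4 starts at position 8262292 of chromosome 19. The neighbours resemble each other, and how the counting treated reads that fit several of them, or strand, is not given in the sources used here, so small counts of one beside a high count of another are uncertain.

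After filtering, 5186 cells of the epithelial sort, 2684 of the CD45neg sort and 7038 E13 nuclei were kept, with medians of 4470.5, 3507.5 and 4217.5 unique molecular identifiers (UMIs, 1 per captured RNA molecule). The E20 libraries shared 106 barcodes, 5 of them among kept cells, and neither shared any with E13. Haemoglobin genes took 7.83% of UMIs in the epithelial sort, 30.2% in the CD45neg sort and 0.0349% at E13, and the median mitochondrial share was 42.7% at E13. Clusters were named from marker lists without using the 4 genes, and names mean "like" that cell type. The epithelial class had 586 EPCAM CPM (counts per 1000000 UMIs of the class) in the epithelial sort and 604 in the CD45neg sort. KDR in the endothelial class was 253 and 331 CPM, TRPC6 in the pericyte class 375 and 504 CPM, and COL1A2 in the fibroblast class 7313 and 3683 CPM, in the same library order. At E13 EPCAM, KDR, TRPC6 and COL1A2 were at 317, 182, 457 and 856 CPM in the same classes. The E20 pericyte clusters were also led by POSTN, which is on the fibroblast marker list, and ADIPOQ. Neither gene was among the 10 leading genes of the E13 pericyte cluster, which was led by EBF1 and TRPC6. No E13 cluster met the red-cell rule. A cluster of 650 unnamed nuclei was led by HBE1 and HBBA, but haemoglobin took only 0.083% of its UMIs. Its best match was epithelial, with 10 of 17 markers on. A total of 6.94% of cells in the epithelial sort, 2.38% in the CD45neg sort and 16.8% of E13 nuclei stayed unnamed, among them a cluster of 91 E20 cells with smooth-muscle markers but led by granule genes such as CATHL2.

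CA2 was highest in red cells and next, among the classes compared, in the pericyte class. It had 9252 CPM in the 1189 red cells of the epithelial sort (30648 UMIs) and 7114 CPM in the 980 red cells of the CD45neg sort (33659 UMIs). The pericyte class came second, with 1075 CPM (exact 95% Poisson interval 997 to 1158) in 167 cells of the epithelial sort and 1467 CPM (1387 to 1551) in 222 cells of the CD45neg sort. All intervals here cover counting error only, since 1 library per group gives no spread between samples. The red level was 8.60-fold the pericyte level (7.98 to 9.29) in the epithelial sort and 4.85-fold (4.58 to 5.13) in the CD45neg sort. When only cells with at least 1000 detected genes were kept, these ratios shrank to 1.31 and 1.44 on the log2 scale, against 3.10 and 2.28, but that limit left 76 of 1189 red cells in the epithelial sort and 27 of 980 in the CD45neg sort. With haemoglobin, mitochondrial and ribosomal genes left out of the totals they grew to 4.27 and 4.03.

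**Figure D1:**
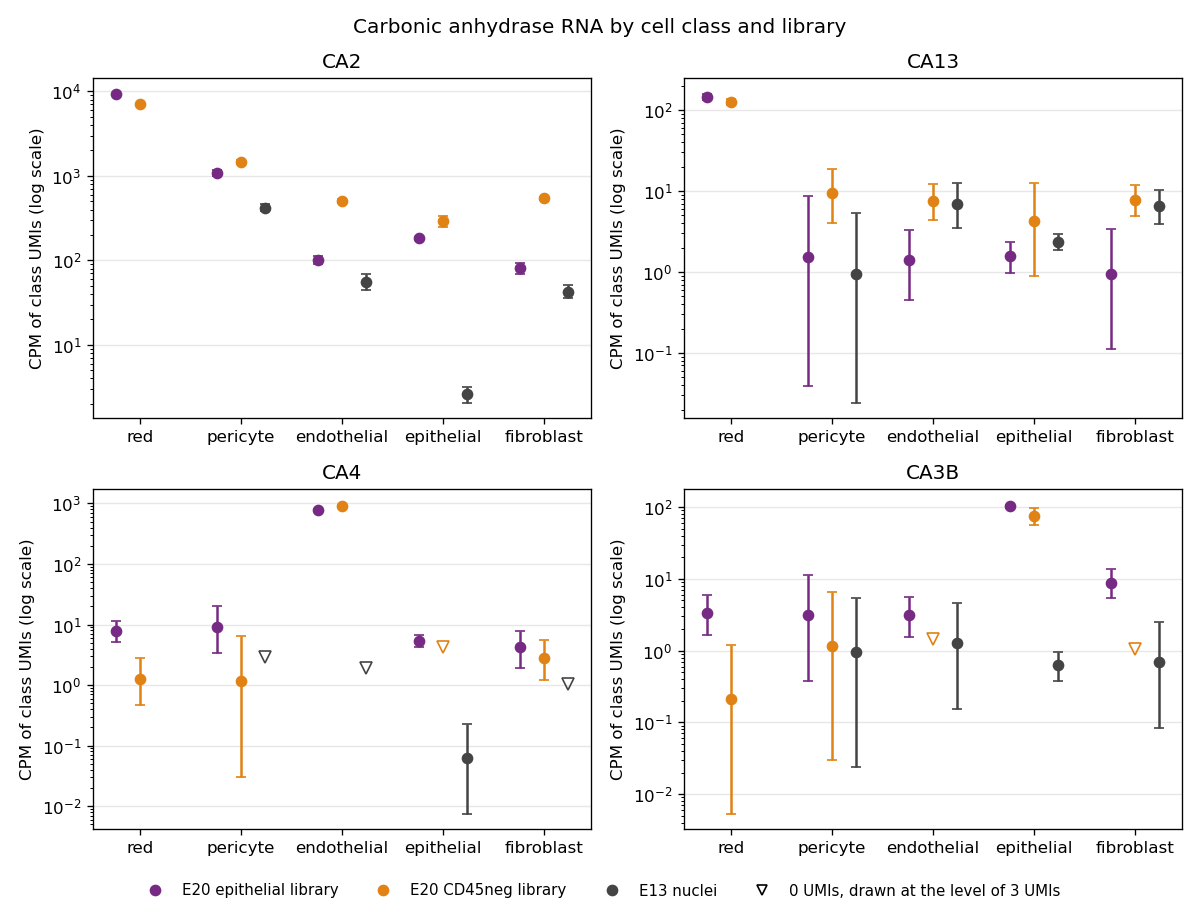
CPM of CA2, CA13, CA4 and CA3B (log scale) in 5 cell classes of the epithelial sort, the CD45neg sort and the E13 nuclei, with exact 95% Poisson intervals of the counts and open triangles for classes with 0 UMIs. CA2 and CA13 were highest in red cells (9252 and 145 CPM in the epithelial sort), CA4 in the endothelial class (772 CPM) and CA3B in the epithelial class (103 CPM), and E13 had no red class.

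Below the pericytes the order of summed CA2 levels differed between the libraries. In the epithelial sort CA2 was 182 CPM in the epithelial class, 101 in the endothelial class and 81.1 in the fibroblast class. That fibroblast class lacks a WIF1-led cluster of 208 cells, best matched by fibroblast markers, that stayed unnamed. For the CD45neg sort the values were 542 CPM in the fibroblast class (515 to 569), 501 in the endothelial class (472 to 533) and 289.6 in the epithelial class, so that the first 2 overlapped within counting error. In the CD45neg sort these sums came mostly from few cells. The 78 of 664 fibroblast cells with at least 3 CA2 UMIs held 79.9% of the class's 1525 CA2 UMIs, and up to 54 each, and the 53 of 638 such endothelial cells held 76.3% of 1053, and up to 46 each. The same cells were rich in globin, with a median of 119.5 HBBA UMIs against 13 in the other fibroblast cells, and 126 against 14 in the other endothelial cells. Of 90 epithelial cells, 22 held 76.6% of 201 CA2 UMIs, at a median of 27 HBBA UMIs against 16. Thinned to 1000 UMIs, 27 of 90 epithelial cells (20.8% to 40.6%), 21.5% of fibroblast and 18.1% of endothelial cells of the CD45neg sort had a CA2 UMI, which runs against the CPM, so no order of these 3 classes is read there. The part of mixed droplets in these levels was not tested.

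Thrombocytes, the nucleated cells that serve as platelets in birds, were not among the classes ranked above. They had 881 CA2 CPM (197 UMIs, 105 cells) in the epithelial sort and 943 CPM (16 UMIs, 6 cells) in the CD45neg sort.

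Free RNA in the droplet fluid can add UMIs of one cell type to another, so CA2 was also set against the beta-globin gene HBBA, which the other classes are not known to make. Per 100 HBBA UMIs, the endothelial class held 5.73 CA2 UMIs (5.14 to 6.38) in the epithelial sort and 5.89 (5.53 to 6.27) in the CD45neg sort. The fibroblast class held 5.83 and 6.89, and the red class as a whole 3.77 and 2.31. Red clusters lay on both sides of these values. They held 9.46 in the RFESD-led and 1.41 in the HBE1-led cluster of the epithelial sort, and 10.7, 2.59 and 0.96 in the HBE-led, OASL-led and HBE1-led clusters of the CD45neg sort. The pericyte class held 66.7 (60.5 to 73.5) and 25.5 (24.0 to 27.2), in the same library order, and so carried several times more CA2 for its globin than the endothelial and fibroblast classes did. The thrombocyte cells held 35.4 (29.9 to 41.7) and 22.2 (12.1 to 38.6). In the CD45neg sort the fibroblast interval (6.54 to 7.26) lay above the endothelial one. Its LVRN-led cluster held 9.03 (8.31 to 9.80), while the C7-led and TNFAIP6-led clusters held 5.85 and 6.01, near the endothelial value. The endothelial cluster led by SEMA3G there held 3.33 (2.36 to 4.58), against 5.99 (5.61 to 6.39) in the large endothelial cluster. Between the libraries the endothelial class ratios to globin overlapped, as did the fibroblast ones. The fibroblast class of the epithelial sort lacks the unnamed WIF1-led cluster, which held 7.85 (6.61 to 9.26). The CA2 CPM of the endothelial and fibroblast classes differed between libraries together with the globin share. That share was 0.40% of endothelial UMIs in the epithelial sort and 1.97% in the CD45neg sort, and the part of free RNA in these levels was not tested.

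**Figure D2:**
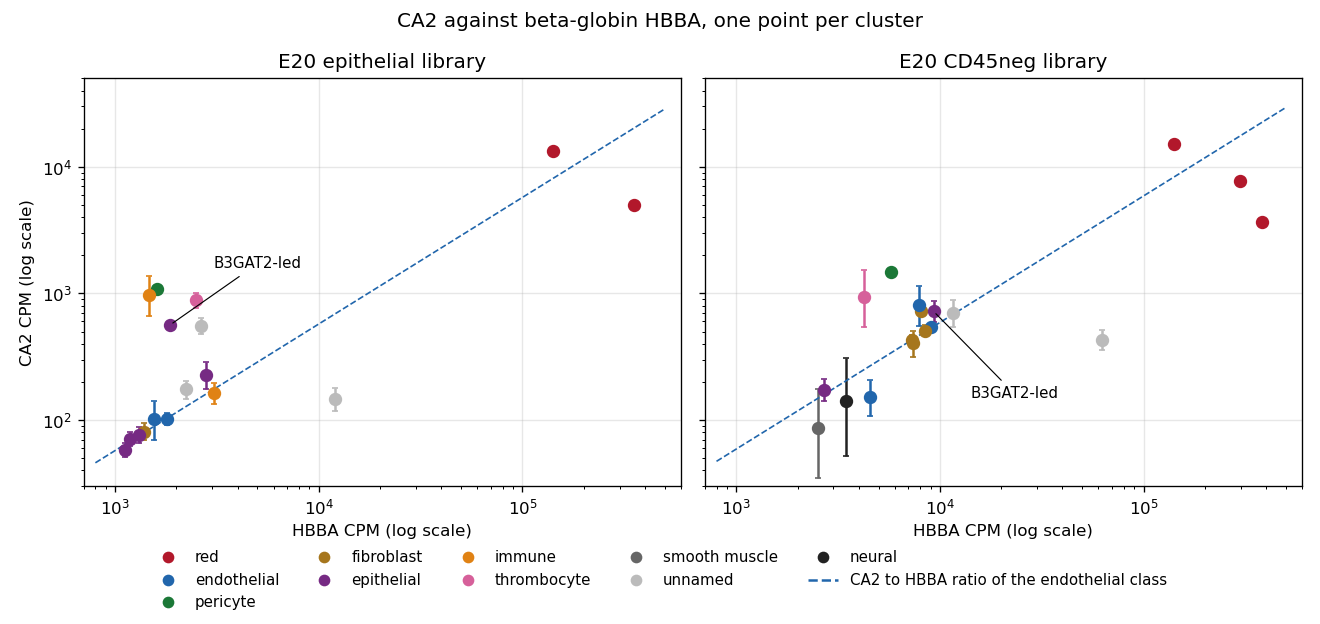
CA2 CPM against HBBA CPM (both log scales), with 1 point per cluster of the epithelial sort and the CD45neg sort, coloured by class, and a dashed line at the CA2 to HBBA ratio of the endothelial class (5.73 and 5.89 CA2 UMIs per 100 HBBA UMIs). The pericyte and thrombocyte clusters lie above the line in both libraries, and the B3GAT2-led epithelial cluster lies clearly above it in the epithelial sort (30.3 per 100) and near it in the CD45neg sort (7.75 per 100).

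Cell by cell, CA2 was detected in nearly every red cell. After thinning each cell to 1000 UMIs, 99.0% of red cells in the epithelial sort and 98.2% in the CD45neg sort had a CA2 UMI, and without thinning 99.6% and 99.4%. Thinned shares in the pericyte class were 62.2% (54.3 to 69.6, exact Clopper-Pearson) and 67.0% (60.3 to 73.1), and 88.6% and 95.5% without thinning. In the endothelial class, set beside it although it is not known to lack CA2 here, they were 6.94% and 18.1% thinned, or 29.3% and 40.4% unthinned, at median depths of 3946 and 3061.5 UMIs against 4091 and 3815 in the pericyte class. A red cell held a median of 22 CA2 UMIs in the epithelial sort and 31 in the CD45neg sort. A pericyte held a median of 4 and 5, and the endothelial and fibroblast medians were 0 in both libraries.

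At E13, where no cluster was named red and the haemoglobin share was small, CA2 was highest in the pericyte class. It had 420.4 CPM (382 to 462) in 292 pericyte nuclei, 56.2 (45.1 to 69.1) in 162 endothelial nuclei, 42.6 (35.4 to 50.8) in 826 fibroblast nuclei and 2.58 (2.06 to 3.20) in 3899 epithelial nuclei. The pericyte level was 7.49-fold the endothelial level (5.95 to 9.51), and the endothelial and fibroblast intervals overlapped. Of 166 pericyte nuclei without any HBBA UMI, 52.4% (44.5 to 60.2) had a CA2 UMI, beside 57.9% (48.8 to 66.7) of 126 with one. Of 78 endothelial nuclei without HBBA, 16.7% (9.18 to 26.8) had a CA2 UMI. Thinned to 1000 UMIs, 29.8% of pericyte nuclei had a CA2 UMI, against 3.09% of endothelial and 0.31% of epithelial nuclei, and without thinning 54.8%, 17.3% and 2.03% did.

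The E13 endothelial value rested on few nuclei. Among the 19 endothelial nuclei that also held a UMI of the pericyte marker TRPC6, 78.9% (54.4 to 93.9) had CA2, against 9.09% (4.93 to 15.04) of the 143 without TRPC6. Nuclei with TRPC6 were deep, with a median of 21497 UMIs against 5398 UMIs in nuclei without TRPC6, and the part of mixed droplets was not tested. With at most 40% mitochondrial UMIs per nucleus, the pericyte over endothelial ratio grew to 5.18 on the log2 scale, against 2.88 without that limit. Most of the 162 endothelial nuclei were above it, since their median mitochondrial share was 48.2%, against 37.4% in pericyte nuclei. Fibroblast nuclei were uneven too. The cluster led by ADAM12 and TAFA2 had 58.8 CA2 CPM (48.8 to 70.3), whereas the cluster led by POSTN and COL1A1 had 2.40 CPM (0.29 to 8.66, 2 UMIs).

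In the pericyte class CA2 was 2.56-fold higher (2.27 to 2.89) in the epithelial sort than at E13 and 3.49-fold higher (3.13 to 3.90) in the CD45neg sort than at E13. Stage, assay and counting software differ together here, and so do the leading genes of the pericyte clusters. The E20 clusters were led by POSTN and ADIPOQ and the E13 cluster by EBF1 and TRPC6. The parts of these differences cannot be told apart. The median mitochondrial share of the pericyte class was 12.5% in the epithelial sort, 8.16% in the CD45neg sort and 37.4% at E13. Both ratios were smaller with less mitochondrial RNA allowed, and with mitochondrial, ribosomal and haemoglobin genes left out of the totals. They were larger with single-marker gates, and the values are given below with the other processing choices. HBBA in the pericyte class was 1611 CPM in the epithelial sort, 5752 CPM in the CD45neg sort and 166 CPM at E13.

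Within the red class, CA2 CPM was lower where globin took more of the RNA. In the epithelial sort it was 4988 CPM in the HBE1-led cluster of 197 cells, where haemoglobin took 81.0% of UMIs, against 13400.2 CPM in the RFESD-led cluster of 992 cells with 36.3% haemoglobin. Within the CD45neg sort CA2 was 3663 CPM in the HBE1-led cluster (86.6% haemoglobin), 7724 CPM in the OASL-led cluster (70.1%) and 15093 CPM in the HBE-led cluster (35.3%). Counted against UMIs other than haemoglobin, the same clusters held 26279 and 21026 CA2 CPM in the epithelial sort, and 27343, 25796 and 23319 in the CD45neg sort, a much narrower range. In CA2 UMIs per cell the order was reversed. The HBE1-led cluster of the epithelial sort held 8149 CA2 UMIs in 197 cells, against 22499 in 992 RFESD-led cells. In the CD45neg sort there were 9211 in 198 HBE1-led, 9446 in 289 OASL-led and 15002 in 493 HBE-led cells. The HBE1-led clusters were also the deepest, at medians of 6129 and 11174 UMIs per cell.

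CA13 was highest in the red cells too. It had 145 CPM (133 to 159, 481 UMIs) in the red cells of the epithelial sort and 127 CPM (117 to 138, 602 UMIs) in those of the CD45neg sort. The other 4 classes described here held between 0.93 and 1.56 CPM in the epithelial sort and between 4.32 and 9.41 CPM in the CD45neg sort, and the intervals of these 4 classes overlapped in each library. The next class was the epithelial one in the epithelial sort, 93.2-fold lower (60.3 to 152), and the pericyte class in the CD45neg sort, 13.5-fold lower (6.82 to 31.5). The log2 ratios add 1 CPM to each level first, which lowers a ratio to a small level. On that scale the first ratio was 5.84 (57.2-fold), and 4.25 with at least 1000 genes per cell, which left 76 red cells. With haemoglobin, mitochondrial and ribosomal genes out of the totals, the log2 ratios were 7.27 against 5.84 and 5.40 against 3.62.

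A CA13 UMI was found in 18.8% (16.6 to 21.1) of thinned red cells in the epithelial sort and 19.5% (17.1 to 22.2) in the CD45neg sort, and unthinned in 31.8% and 42.3%. In the fibroblast class, set beside them, none of 423 thinned cells in the epithelial sort had a CA13 UMI, which allows a share of up to 0.709% by the limit of 3 counts (0.868% by the exact interval), and 0.46% did in the CD45neg sort. The CA13 to CA2 ratio was 1.57 CA13 UMIs per 100 CA2 UMIs in red cells of the epithelial sort (1.43 to 1.72) and 1.79 in those of the CD45neg sort (1.65 to 1.94). It was 1.39 and 1.52 in the endothelial class, with intervals that take in the red values. In the pericyte class it was 0.14 (0.0036 to 0.80) and 0.64 (0.28 to 1.27), below the red interval in both libraries. Pericyte cells thus held less CA13 for their CA2 than red cells did.

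With haemoglobin left out of the totals, CA13 was nearly level across red clusters, at 352 and 348 CPM in the HBE1-led and RFESD-led clusters of the epithelial sort. In the CD45neg sort the HBE1-led, OASL-led and HBE-led clusters held 419, 459 and 455 CPM. At E13 CA13 was low throughout. The endothelial class had 6.94 CPM (11 UMIs) and the fibroblast class 6.57 CPM (19 UMIs), which overlapped, and the epithelial class 2.37 CPM (76 UMIs).

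**Figure D3:**
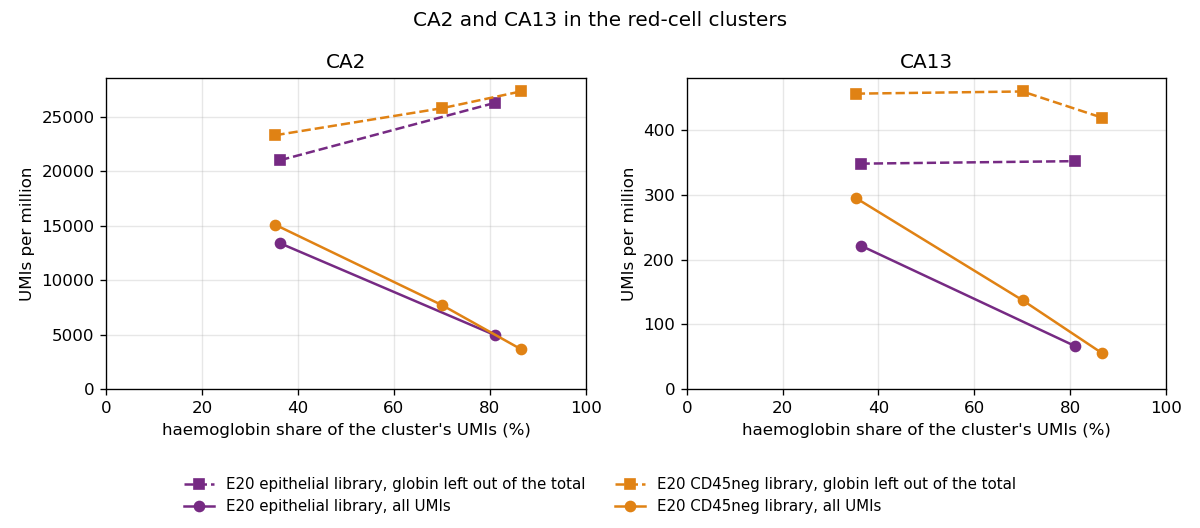
CA2 and CA13 CPM in each red-cell cluster against the haemoglobin share of the cluster's UMIs (%), for the epithelial sort and the CD45neg sort, with all UMIs (circles) or with haemoglobin left out of the total (squares). The circles fall as the haemoglobin share grows, for CA2 to 4988 at 81.0% against 13400.2 at 36.3% in the epithelial sort, while the squares stay between 21026 and 27343 for CA2.

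CA4 was highest in the endothelial class at E20. It had 772 CPM (743 to 801, 2749 UMIs) in 803 endothelial cells of the epithelial sort and 914 CPM (874 to 956, 1920 UMIs) in 638 of the CD45neg sort. At E13 it had 0 UMIs in 162 endothelial nuclei. The E20 levels were 408-fold higher in the epithelial sort and 483-fold higher in the CD45neg sort than the level of 3 UMIs in the E13 class. By the exact interval of the ratio they were at least 331-fold and 392-fold the E13 level, in the same library order. Stage, assay and counting software differ together in these folds too, and their parts cannot be told apart. The median mitochondrial share of the E13 endothelial nuclei was 48.2%. All E13 nuclei of the named classes together held 3 CA4 UMIs, 2 epithelial and 1 mesothelial.

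CA4 was far lower in the other compared classes. In the epithelial sort the next of the classes compared was the pericyte class with 9.27 CPM, 83.3-fold lower (38.2 to 227), and red, epithelial and fibroblast cells held 7.85, 5.34 and 4.19 CPM. Smooth muscle came next in the CD45neg sort, with 49.2 CPM, 18.6-fold lower (7.25 to 68.3), where all 4 UMIs came from 1 of 11 cells. The pericyte, red and fibroblast classes held 1.18, 1.27 and 2.84 CPM there and the epithelial class 0. Thrombocytes held 6 CA4 UMIs of 223635 in 105 cells of the epithelial sort, and 3 of 16975 in 6 cells of the CD45neg sort. On these few UMIs their level was above that of the pericyte class and of smooth muscle, in the same library order. Thinned to 1000 UMIs, 38.3% (34.9 to 41.7) of endothelial cells in the epithelial sort and 43.0% (39.1 to 46.9) in the CD45neg sort had a CA4 UMI, and 61.9% and 58.9% without thinning. The fibroblast shares were 0.47% and 0.30% thinned, or 2.13% and 1.20% unthinned, at medians of 4930 and 4189.5 UMIs against 3946 and 3061.5 UMIs in the endothelial class.

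Endothelial clusters differed in CA4. The cluster led by SEMA3G and GJA4, genes known from arterial endothelium, had 181 CPM (138 to 234) in the epithelial sort, against 831 CPM (800.1 to 863) in the large cluster with PECAM1 among its leading genes. The SEMA3G-led cluster of the CD45neg sort had 264 CPM (205 to 335), against 1028 CPM (982 to 1076) in the large cluster with CDH5 and PDGFB among its leading genes. Over all endothelial cells of the epithelial sort, 62.3% (57.2 to 67.2) with a GJA4 UMI had CA4, and 61.5% (56.8 to 66.2) without. In the CD45neg sort these shares were 51.5% (45.3 to 57.7) and 64.2% (59.1 to 69.1). A group of 11 cells in the CD45neg sort led by LYVE1, MRC1 and MMRN1, genes known from lymphatic endothelium, held 0 CA4 UMIs, which allows a level of up to 73.6 CPM by the limit of 3 UMIs (90.5 CPM by the exact interval). A median endothelial cell held 1 CA4 UMI in each library, and the highest 33 in the epithelial sort and 25 in the CD45neg sort.

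CA3B was highest in the epithelial class at E20, and within it in the B3GAT2-led cluster. The epithelial class had 103 CPM (97.3 to 108, 1384 UMIs) in 1952 cells of the epithelial sort and 74.9 CPM (56.0 to 98.2, 52 UMIs) in 90 cells of the CD45neg sort, against 0.62 CPM (0.38 to 0.96, 20 UMIs) in 3899 epithelial nuclei at E13. The E20 levels were 165-fold (106 to 271) and 120.4-fold (70.6 to 213) the E13 level, in the same library order. The parts of stage, assay and counting software in these folds cannot be told apart either. On the log2 scale, with 1 CPM added to each level, the ratios were 5.997 and 5.55 (63.9-fold and 46.8-fold). With at most 10% mitochondrial UMIs at E20 and 40% at E13, these log2 ratios fell to 3.83 and 4.81. In the epithelial sort the fibroblast class came next with 8.85 CPM, 11.6-fold lower (7.40 to 19.3), but 11 of its 19 UMIs came from 1 cell. The other 422 fibroblast cells held 3.75 CPM, near the 3.32, 3.09 and 3.09 CPM of the red, pericyte and endothelial classes. The epithelial over fibroblast ratio was 2.57 on the same log2 scale with doublets kept and 4.19 with at least 1000 genes, against 3.40. The pericyte class came next in the CD45neg sort, with 1 UMI, a ratio of 63.7 with an interval of 10.9 to 2563.

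Within the epithelial sort, the cluster led by B3GAT2 and EMP1 had 444 CA3B CPM (421 to 469) in 612 cells. The clusters led by PDIA2, CAPSL and SFTPA2 had 4.64, 5.12 and 2.54 CPM, and the cluster led by GNLY and PLAC8 had 0 UMIs in 53 cells. In the CD45neg sort the B3GAT2-led cluster had 354 CPM (264.5 to 464) in 32 cells, and the other 58 epithelial cells, with SFTPC and SFTPA1 among their leading genes, had 0 UMIs. The B3GAT2-led cells were low in surfactant RNA, with 5731 SFTPC CPM in the epithelial sort against 113491, 106297 and 58313 CPM in the PDIA2-led, CAPSL-led and SFTPA2-led clusters. SFTPC in the CD45neg sort was 4733 CPM in the B3GAT2-led cluster against 102665 CPM in the other epithelial cluster.

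**Figure D4:**
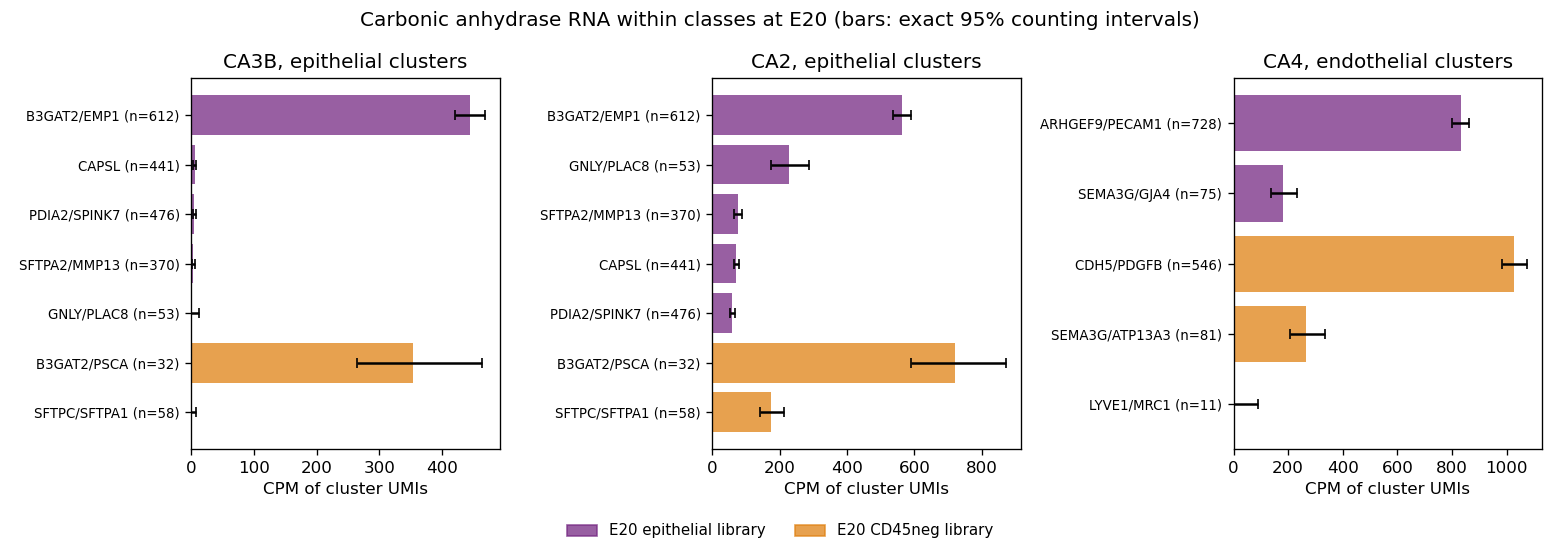
CPM of CA3B and CA2 in each epithelial cluster and of CA4 in each endothelial cluster of the epithelial sort and the CD45neg sort, named by leading genes with the number of cells, and with exact 95% Poisson intervals. CA3B was high in the B3GAT2-led clusters (444 and 354 CPM) and at most 5.12 CPM in the other epithelial clusters, and CA4 was lower in the SEMA3G-led clusters (181 and 264 CPM) than in the large endothelial clusters (831 and 1028 CPM).

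CA2 too was highest in the B3GAT2-led cluster among epithelial clusters of the epithelial sort. The B3GAT2-led cluster had 563 CA2 CPM (537 to 591), against 226 CPM in the GNLY-led cluster and 58.3, 71.1 and 76.1 CPM in the PDIA2-led, CAPSL-led and SFTPA2-led clusters. Per 100 HBBA UMIs this was 30.3 CA2 UMIs (28.7 to 32.0) in the B3GAT2-led cluster, against 8.11 (6.21 to 10.4) in the GNLY-led cluster and 5.24, 5.99 and 5.79 in the other 3. In the CD45neg sort the B3GAT2-led cluster had 722 CA2 CPM (591 to 873), but only 7.75 CA2 UMIs per 100 HBBA UMIs (6.30 to 9.45), against 6.41 (5.16 to 7.90) in the other epithelial cluster. The ratio to globin of B3GAT2-led cells thus differed between the libraries, and the difference was not tested.

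Of the epithelial cells with a CA2 UMI in the epithelial sort, 37.0% (33.9 to 40.3) also had CA3B, against 9.62% (7.90 to 11.6) of those without CA2. These shares pool all epithelial clusters, and both genes were highest in the B3GAT2-led one. They therefore do not show whether the genes go together within a cluster. The CA2-positive cells were shallower, with a median of 5834.5 UMIs against 6883.5 UMIs in cells without CA2. The shares in the CD45neg sort were 23.3% (13.4 to 36.0) and 6.67% (0.82 to 22.1), which overlapped. Overall 9.66% of thinned epithelial cells in the epithelial sort and 10.0% in the CD45neg sort had a CA3B UMI, and 22.3% and 17.8% unthinned. In the endothelial class the thinned share was 0.25% in the epithelial sort, and 0 of 635 cells did in the CD45neg sort, which allows a share of up to 0.472% by the limit of 3 counts (0.579% by the exact interval). With single-marker gates in place of clusters, 19 CA3B UMIs fell in 3 of 193 KDR-gated cells of the CD45neg sort. This was 25.9 CPM (15.6 to 40.4), which overlapped the 44.5 CPM (28.8 to 65.7) of EPCAM-gated cells there. KDR-gated cells of the epithelial sort held 11.4 CPM (6.54 to 18.6), from 16 UMIs in 7 of 260 cells. EPCAM-gated cells of that sort held 72.3 CPM (67.4 to 77.5).

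The class contrasts that chose the genes were set against all genes, and nothing is read from these counts. At E20 a gene was called when its CPM was at least 4-fold higher in a class than in the pooled other named classes, with 1 CPM added, among genes with at least 50 CPM on either side. Of the 4 genes, 3 or 4 passed that minimum in each contrast. In the red class 2 were called in both libraries, CA2 and CA13, where 5.03% of 2804 genes in the epithelial sort and 1.96% of 3372 genes in the CD45neg sort were called. CA4 alone was called in the endothelial class (16.2% and 15.9% of genes) and CA3B alone in the epithelial class (6.88% and 9.05%). None of the 4 was called in the pericyte class (10.6% and 9.65%), where CA2 was set against a pool with the red cells in it, or in the fibroblast class (13.3% and 16% of genes). At least 4-fold lower were 43.5% and 61.8% of genes in the red class, 7.24% and 6.86% in the endothelial class, 16.2% and 14.8% in the epithelial class, 8.42% and 7.02% in the pericyte class and 7.42% and 4.44% in the fibroblast class, epithelial sort first. Among the 4 genes, CA4 was called lower in the red, epithelial, pericyte and fibroblast classes, and CA2 in the endothelial, epithelial and fibroblast classes, in both libraries. CA3B was called lower in the red, endothelial, pericyte and fibroblast classes of the epithelial sort, and CA13 in the endothelial, epithelial, pericyte and fibroblast classes of the CD45neg sort. In the same contrasts of the other library both were below 50 CPM on each side.

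Of 16 other carbonic anhydrase genes listed, 8 were in the tables, and none reached 50 CPM in any of the compared classes at E20. CA5B, a mitochondrial member, was the highest of them in the endothelial class, at 27.0 CPM in the epithelial sort and 24.8 CPM in the CD45neg sort. CA8, a relative that lacks the catalytic activity, was at 34.6 CPM in E13 epithelial nuclei, and CA9, a membrane enzyme, at 13.01 CPM there. CA3A, the neighbour of CA3B, had 0 UMIs in every named class at E20. Whether reads of CA3A were counted as CA3B was not tested.

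Among 34 listed genes of bicarbonate and proton transport, 32 were in the tables and between 5 and 8 reached 50 CPM in a given class contrast. In red cells SLC4A1, the chloride and bicarbonate exchanger, was at 1108 CPM in the epithelial sort and 983 CPM in the CD45neg sort, against 10.7 and 60.6 CPM in the other named classes. SLC16A1, a lactate carrier, was also called higher in both, at 259.6 and 185 CPM, against 11.4 and 41.7 CPM. SLC9A3R2 and AQP1 were called lower in red cells in both libraries. The list's median log2 ratio in red cells was -1.81 in the epithelial sort and -3.28 in the CD45neg sort, beside -1.60 and -2.66 over all genes.

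In the pericyte class SLC4A4, the sodium and bicarbonate cotransporter, was at 97.3 CPM in the epithelial sort and 153 CPM in the CD45neg sort, against 3.37 and 5.34 CPM in the other named classes. SLC4A1 and AQP1 were called lower there in both libraries. The list's medians were -0.29 and -0.42 beside 0.41 and 0.61 over all genes.

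In the endothelial class BSG, the chaperone of the lactate carriers, was at 1927 CPM in the epithelial sort and 1981 CPM in the CD45neg sort, against 278 and 230.3 CPM in the other named classes. SLC9A3R2, a scaffold of ion exchangers, was at 597 and 606 CPM against 60.9 and 52.8 CPM. SLC4A11 and RHBG, an ammonia carrier, were called in the CD45neg sort only, at 50.0 and 54.3 CPM in the endothelial class against 0.76 and 7.37 CPM in the others, and the difference between libraries was not tested. The list's medians were 1.11 and 2.13 beside 0.73 and 0.97 over all genes.

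In the epithelial class SLC9A2, a sodium and proton exchanger, was at 63.1 CPM in the epithelial sort and 73.5 CPM in the CD45neg sort, against 2.17 and 0.094 CPM in the other named classes. AQP1, a water channel, was called in the CD45neg sort, at 2213 CPM in the epithelial class against 532 CPM in the others. In the epithelial sort it was 2372 CPM in the epithelial class against 1089.7 CPM in the others and was not called. The list's medians were -1.06 and -0.80 beside -0.40 and -0.14 over all genes. SLC4A1 and SLC16A1 were called lower in the epithelial class in both libraries. In the fibroblast class no list gene was called higher and SLC4A1 alone was called lower, in both libraries.

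Across the 20 class and library groups of at least 20 cells, the genes most like each member in log2(CPM + 1) were listed among 6282 genes with a symbol and at least 50 CPM in a group. The groups share libraries and their free RNA, so the Pearson correlations are only a description. CA2 was most like HBBA (r = 0.894), PSMD9 (0.890) and HBAD (0.886), which include 2 haemoglobin genes. CA13 was most like HBE1 (0.929), HBE (0.878) and KATNA1 (0.827), again with 2 haemoglobin genes first. CA4 was most like BSG (0.931), FAM174A (0.920) and ACE (0.904), the angiotensin-converting enzyme of lung capillaries. CA3B was most like B3GAT2 (0.945), ATP12A (0.943), a proton and potassium pump, and CST3 (0.940).

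The chromatin of the E13 nuclei was read at the 22 assigned peaks, as CPM of a class's summed peak counts. A nucleus with any count at a peak often held several, whereas the Poisson intervals take counts as independent. The peak intervals are therefore too narrow. The class totals ran from 32199220 counts in epithelial nuclei to 1197337 in pericyte nuclei among the 4 classes tested, and 367095 in smooth muscle. The promoter peak of CA2 was open in every class, between 37.0 and 53.5 CPM, although CA2 RNA differed between 420.4 CPM in pericyte and 2.58 CPM in epithelial nuclei. The promoter peak of CA13, which is also assigned to RBIS, was likewise open throughout, between 42.3 and 80.8 CPM. The promoter peak of CA4, also assigned to ZNHIT3 and ENSGALG00000005350, was at most 4.69 CPM (3.97 to 5.50), in epithelial nuclei. In endothelial nuclei it was 1.75 CPM (0.36 to 5.11, 3 counts). The promoter peak of CA3B was at most 14.6 CPM (9.43 to 21.5, 25 counts), in endothelial nuclei, against 7.36 CPM (6.45 to 8.36) in epithelial nuclei. Neither peak was thus highest in the class with the most RNA of its gene at E20.

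Single distal peaks differed between classes. A CA2 peak 30505 bp from the gene's start by the deposited annotation (chromosome 2, 122796745 to 122797515) had 30.9 CPM in pericyte nuclei (21.8 to 42.6, 37 counts in 18 nuclei). It had 5.25 CPM in endothelial, 0.56 in epithelial and 0.53 in fibroblast nuclei. The pericyte nuclei thus had both the highest CA2 RNA and the highest count at this peak at E13. Distal CA2 peaks at 54482 and 25569 bp went the other way. They had 9.47 and 8.73 CPM in epithelial nuclei, where CA2 RNA was lowest of the compared classes. In pericyte nuclei they had 0 and 1.67 CPM. Both were below the minimum of 10 CPM for a call.

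A CA4 peak 5872 bp from the start of CA4 (chromosome 19, 8255592 to 8256420) had 33.8 CPM in endothelial nuclei (25.7 to 43.7, 58 counts in 25 nuclei), against 6.68 in pericyte, 4.73 in fibroblast and 1.83 in epithelial nuclei. It was open at a stage with 0 CA4 UMIs in endothelial nuclei. The annotation assigns the same peak to ZNHIT3 and ENSGALG00000005350 as well.

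The epithelial nuclei had 2 such peaks. The CA3B peak at 6430 bp (chromosome 2, 122715126 to 122716242) had 14.9 CPM in epithelial nuclei (13.6 to 16.3), against 2.33 in endothelial and 1.05 in fibroblast nuclei, with 0 counts in pericyte nuclei. CA3B RNA in the same epithelial nuclei was 0.62 CPM. The CA13 peak at 19497 bp (chromosome 2, 122644064 to 122644964) had 39.3 CPM in epithelial nuclei (37.2 to 41.6) and 13.6 CPM in smooth muscle (5 counts), against 5.01 in pericyte, 2.92 in endothelial and 2.36 in fibroblast nuclei. CA13 RNA was 2.37 CPM in these epithelial nuclei, 1.56 CPM in the epithelial class of the epithelial sort and 4.32 CPM in that of the CD45neg sort. With doublets kept, the log2 ratios of these 2 peaks to the other named nuclei were 1.95 for CA3B, against 2.72, and 2.12 for CA13, against 3.29, so that the CA3B peak was no longer 4-fold higher. A CA3B peak at 26970 bp went the other way, with 11.8 CPM in fibroblast, 10.9 in pericyte and 19.1 in smooth-muscle nuclei (7 counts) against 1.02 in epithelial nuclei.

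The peaks called were few, and nothing particular to these genes is read from their number. A peak was called when at least 4-fold higher in a class than in the pooled other named nuclei, with 1 CPM added and at least 10 CPM on either side. In epithelial nuclei 2 of 5 tested peaks were called, beside 16.1% of all tested peaks, and in endothelial nuclei 1 of 7, beside 6.81%. In pericyte nuclei 1 of 9 was called, beside 9.56%, and in fibroblast nuclei 1 of 6, beside 15.1%. The median log2 ratio of the tested peaks was 0.07 in epithelial, 0.61 in endothelial, 0.48 in pericyte and -0.21 in fibroblast nuclei, beside -0.21, 0.21, 0.17 and 0.11 over all tested peaks in the same class order.

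**Figure D5:**
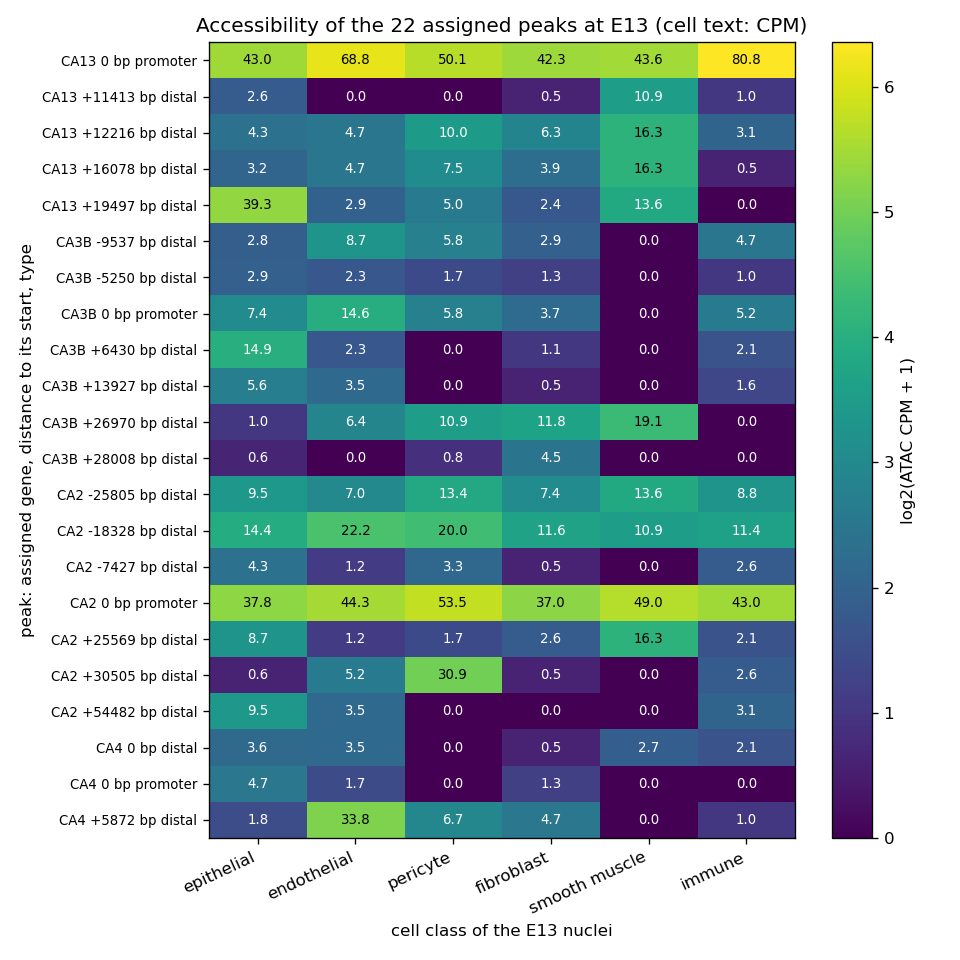
ATAC CPM at the 22 peaks assigned to CA13, CA3B, CA2 and CA4 (rows, with the deposited distance to the gene's start in bp and the peak type) in 6 classes of E13 nuclei (columns), coloured by log2(CPM + 1). The CA2 promoter peak is open in every class (37.0 to 53.5 CPM), while the CA2 peak at 30505 bp reaches 30.9 CPM in pericyte nuclei and the CA4 peak at 5872 bp 33.8 CPM in endothelial nuclei.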

How the data were processed

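The files deposited by the authors hold unnormalised counts, of UMIs for each gene in each barcode and, at E13, of ATAC signal for each peak. They were made with cellranger 4.0.0 for E20 and cellranger-arc 2.0.0 for E13, per the file headers. The build galGal6 is from the submitters' processing notes. How barcodes were chosen, the annotation, and whether intron reads or strand were used are not given in the sources used here. Peak types and distances are those of the deposited annotation. Library totals were 31800493 UMIs for the epithelial sort, 13997201 for the CD45neg sort and 53372394 for E13.

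The 4 genes, the marker lists and the gene lists were chosen with earlier results of these data known. Genes were matched between tables by Ensembl ID, since 219 IDs had differing symbols. Barcodes with at least 500 genes were kept, and at E20 at most 20% mitochondrial UMIs. Each cell was scored against simulated pairs of cells, and 0.8% per 1000 cells were removed as doublets. Each library was clustered on its own (scanpy 1.11.5, 2000 variable genes, 30 components, 15 neighbours, Leiden at resolution 1) without the 4 genes, the lists, and mitochondrial or ribosomal genes. A marker was on at 20 CPM and at least 25% of its highest cluster, and a cluster took the class with the highest share of its markers on. It needed at least 3 of them, a lead of 10 percentage points, and leading genes that did not belong to another class, and red cells needed 20% haemoglobin UMIs. These naming limits were set after seeing the data, as was the rule that 3 granule genes among the 10 leading genes leave a cluster unnamed.

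UMIs were summed per class and given as CPM, with exact Poisson intervals at 95%, and shares have exact Clopper-Pearson intervals. Folds in the report are ratios of CPM with conditional exact intervals. The log2 ratios add 1 CPM. With 1 library per group no test was possible. A fold against 0 UMIs uses a floor of 3 UMIs over the class, and a count of 0 is given with the limit of 3 counts, which lies below the upper bound of the two-sided exact interval. The next class was sought among epithelial, endothelial, pericyte, fibroblast, smooth muscle and red. The list genes named are those past 4-fold with at least 50 CPM in the class, and the genes most like each member are the first 3 by correlation. Not every gene that met the list rule is reported here. Single-marker gates used at least 2 UMIs of EPCAM, KDR, TRPC6 or COL1A2, or 20% haemoglobin. All but the haemoglobin gate also limited the UMIs of other markers. Thus the KDR gate took no cell with a TRPC6 UMI, and the TRPC6 gate none with a KDR UMI. Peaks named are those at least 4-fold higher in a class with at least 10 CPM, a rule set after seeing the data. The class ratio was tested on simulated data. Analyses ran in Python 3.11.15 with scipy 1.17.1. No genome sequence was used.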

Additional observations from a re-analysis of the deposited data

Results flagged for a closer look

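The order of summed CA2 levels (CPM) between classes turned round between the E20 libraries. Epithelial over endothelial CA2 was 0.84 on the log2 scale (0.68 to 1.01) in the epithelial sort and -0.79 (-1.02 to -0.57) in the CD45neg sort. Epithelial over fibroblast CA2 was 1.15 (0.94 to 1.39) in the epithelial sort and -0.90 (-1.12 to -0.69) in the CD45neg sort. Both intervals of each pair lie on opposite sides of 0 and cover counting error only. Shares of cells did not turn round in these pairs. However, the counting interval of the epithelial share in the CD45neg sort takes in the fibroblast share there, so that order is not settled. Thinned to 1000 UMIs, 292 of 1946 epithelial cells, 6.94% of endothelial and 6.38% of fibroblast cells had a CA2 UMI in the epithelial sort. In the CD45neg sort 27 of 90 epithelial cells, 18.1% of endothelial and 21.5% of fibroblast cells did, and the fibroblast and endothelial sums came mostly from few cells. The difference between the libraries was not tested, since each is 1 sample. The fibroblast classes were also unlike, since a WIF1-led cluster of 208 cells best matched by fibroblast markers stayed unnamed in the epithelial sort. Clusters sharing leading genes with it, such as APCDD1L and PTGDS, were named fibroblast in the CD45neg sort. With single-marker gates, EPCAM-gated cells of the epithelial sort held 144 CA2 CPM (137 to 151) and COL1A2-gated cells 134 (121 to 147), which overlapped. In the CD45neg sort these gates held 208 and 509 CPM. Haemoglobin took 0.34% of epithelial and 0.40% of endothelial UMIs in the epithelial sort, and 1.03% of epithelial and 1.97% of endothelial UMIs in the CD45neg sort, and its part in the change of order was not tested.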

How the results depend on the processing

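Log2 ratios add 1 CPM, and the cause of each change was not tested unless stated. With at least 1000 genes per cell, red over pericyte CA2 was 1.31 in the epithelial sort and 1.44 in the CD45neg sort, CA3B epithelial over fibroblast 4.19, CA13 red over epithelial 4.25 and the CA13 peak 2.17. With less mitochondrial RNA allowed, CA2 pericyte over endothelial at E13 was 5.18 and red over pericyte CA2 3.33 and 2.18. The ratios of E20 to E13 were then 3.83 and 4.81 for CA3B, 9.81 and 9.92 for CA4, and 0.81 and 1.54 for CA2 in pericytes, E20 epithelial library first. With doublets kept, CA13 endothelial over fibroblast at E13 turned to -0.22, against 0.069, CA3B epithelial over fibroblast was 2.57, CA2 in pericytes of the CD45neg sort over E13 2.07, and the CA13 and CA3B peaks in epithelial nuclei 2.12 and 1.95. With single-marker gates, CA2 pericyte over endothelial at E13 was 4.61, red over pericyte CA2 in the epithelial sort 3.25, CA2 in pericytes at E20 over E13 1.69 and 2.20, and the CA4 peak 4.02. The gated E13 endothelial value came from 5 CA2 UMIs in 43 nuclei, all without a TRPC6 UMI by the gate's rule. With 0.1 CPM added, CA13 red over epithelial was 6.45, and the ratios of E20 to E13 were 7.15 and 6.70 for CA3B and 12.91 and 13.16 for CA4, which rest on the added value because E13 had 0 UMIs. With mitochondrial, ribosomal and haemoglobin genes left out of totals, red over pericyte CA2 was 4.27 and 4.03, CA13 red over next 7.27 and 5.40, CA4 at E20 over E13 9.99 and 10.19, and CA2 in pericytes at E20 over E13 1.02 and 1.41.

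Without thinning, shares of cells with a UMI were 54.8% for CA2 in E13 pericytes, 99.6% and 99.4% for CA2 and 31.8% and 42.3% for CA13 in red cells, 22.3% for CA3B in the epithelial class of the epithelial sort, 61.9% and 58.9% for CA4, and 4.94% for CA13 in E13 endothelial nuclei. With no minimum CPM, more low genes entered, and genes at least 4-fold higher numbered 541 in epithelial (214 with the minimum), 1052 in endothelial (578), 733 in pericyte (348), 898 in fibroblast (421) and 274 in red cells (141) of the epithelial sort. In the CD45neg sort they numbered 673 (263), 1120 (585), 650 (323), 1242 (546) and 144 (66) in the same order of classes.

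Leiden resolution 2 moved none of the 21 ratios beyond its counting interval. The alternatives for peaks were chosen after seeing the data. No paired analysis was possible because each group is 1 library. Depth limits CA13 outside red cells, CA3B outside the epithelial class, and every value of classes under 20 cells.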

Other observations

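A cluster of 13 immune-named cells with CD3D and CD3E among its leading genes in the epithelial sort held 31 CA2 UMIs, or 66.0 per 100 HBBA UMIs (40.5 to 106). The 174 other immune cells there, led by AVD and CD74, held 5.29 per 100 (4.34 to 6.39), close to the endothelial value.

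Fibroblast clusters of the CD45neg sort differed in the same ratio. The cluster led by LVRN and PTGDS held 9.03 CA2 UMIs per 100 HBBA UMIs (8.31 to 9.80), against 5.85 (5.28 to 6.46) in the cluster led by C7 and SCARA5.

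CA5B had 118 CPM in the 6 thrombocyte cells of the CD45neg sort, from 2 UMIs, and 4.47 CPM in the 105 of the epithelial sort, from 1 UMI.

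A cluster of 53 unnamed cells in the epithelial sort, matched best by endothelial markers but with POSTN and ADIPOQ, leading genes of the pericyte clusters, among its own, held 21.0 CA2 UMIs per 100 HBBA UMIs (17.8 to 24.7). This lies between the 66.7 of the pericyte class and the 5.73 of the endothelial class there.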
